A study of Mus musculus with 4 samples.

Results

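Isolated CpGs are CpG sites that stand alone, and here they were autosomal CpGs that had 10 or more reads in each of the 4 libraries and no second CpG, in whichever library listed it, at 100 bp or less. There were 73463 of them, 7.03% of the 1045368 CpGs that reached this coverage in all 4 libraries. They came from 152167 isolated autosomal CpGs listed in at least 1 library, of which 48.3% met the coverage minimum. A CpG of the genome that no library listed does not count as a neighbour, so isolation is a property of the covered part of the genome. The CpGs were chosen by position and coverage, not by methylation. No genome or gene annotation of the build used by the files was at hand, so no sequence, gene, exon or promoter is given for any site.

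Methylation of the cytosine in a CpG is a heritable DNA mark, copied after replication onto the new strand by the maintenance enzyme Dnmt1 with its partner Uhrf1. In mammalian somatic cells most CpGs in CpG-poor sequence are methylated, while dense runs of CpGs, called CpG islands, are mostly free of the mark. In human tumours and long-cultured human cells, solitary CpGs are known to lose methylation more readily than CpGs with close neighbours.

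The study used mouse embryonic fibroblasts (MEFs), a primary culture of connective tissue cells, of a 129/SvJ x C57/B6 hybrid background. All groups, control included, were secondary, inducible MEFs, cells whose reprogramming factors are switched on by doxycycline. Reduced representation bisulfite sequencing (RRBS), which cuts DNA with MspI, selects short fragments (40 to 220 bp here) and reads unmethylated cytosines as thymines, gave 1 library per group. The groups were uninduced control MEFs and 3 cohorts kept in doxycycline for 96 hours with an average of 0, 1 or more than 3 divisions, named below by that number. The label of the last cohort gives more than 3 divisions in one field and 3 or more in another. The labels name medium with 10% serum, doxycycline medium with 15% serum and a starvation medium with 0.5% serum. They do not tell which cells were starved, so serum cannot be told apart from induction or from the number of divisions here. The files hold methylation by position alone, so the cell type could not be checked against markers.

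With 1 library per group no value below has a replicate check, and each test compares 2 libraries, not conditions. Over the isolated CpGs the summed read count was 4687376 in control, 5520908 at 0 divisions, 4458140 at 1 division and 3830082 at more than 3 divisions. The median isolated CpG had 56, 63, 50 and 43 reads in the same order. Coverage was under 20 reads at 4.43%, 3.41%, 6.35% and 13.2% of them. Intervals below are 95% intervals for read-counting error only, and RRBS reads carry no molecular identifiers here, so copies made by PCR are counted as separate reads.

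Isolated CpGs were highly methylated in the control, 0-division and 1-division libraries and less so in the >3-division library. The mean level, methylated reads over all reads with equal weight per CpG, was 79.3% in control (79.26% to 79.34%), 79.1% at 0 divisions, 79.1% at 1 division and 69.8% at more than 3 divisions (69.73% to 69.83%). The median was 85.5%, 85.1%, 85.0% and 76.6% in the same order. The means of the first 3 libraries lay within 0.25 points of each other, and the last stood apart from all of them.

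The distribution of levels sat lower in the >3-division library. The share of isolated CpGs at 80% methylation or more was 68.9% in control, 68.0% at 0 divisions, 67.4% at 1 division and 39.7% at more than 3 divisions. The share between 20% and 80% was 28.1%, 29.0%, 29.7% and 53.8%. The share under 20% was 3.02% in control, or 2219 CpGs, and 3.01% and 2.97% at 0 and 1 division, against 6.56%, or 4819 CpGs, at more than 3 divisions. Levels at or over 90% were found at 29.0%, 27.2% and 28.6% of isolated CpGs in the first 3 libraries and at 11.4% in the last. The standard deviation of levels across isolated CpGs was 19.4, 19.2, 19.3 and 22.8 points. Read counting alone would give 5.32, 5.05, 5.58 and 6.95 points.

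**Figure D1:**
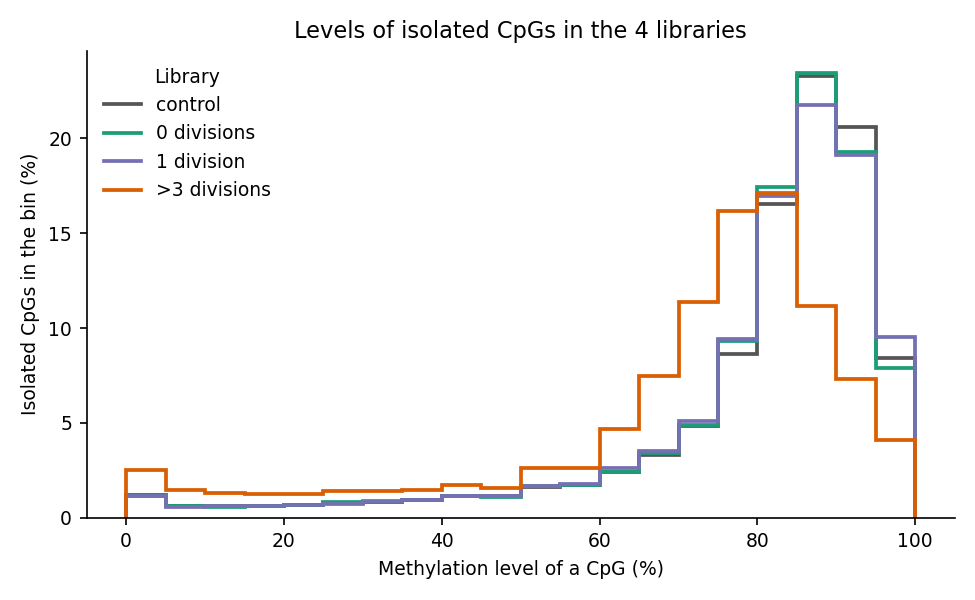
Share of the 73463 isolated CpGs (y axis, %) in each 5-point bin of methylation level (x axis, %), with 1 line per library. The control, 0-division and 1-division lines run close together and are tallest from 85% to 90%. The >3-division line lies to their left, is tallest from 80% to 85% and has a median of 76.6%.

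Isolated CpGs were more methylated than autosomal CpGs with neighbours in every library. The 930934 other autosomal CpGs of the same coverage averaged 38.6% in control, 38.8% at 0 divisions, 38.7% at 1 division and 35.5% at more than 3 divisions. The isolated CpGs were higher in 4 of 4 libraries, by 40.7, 40.2, 40.4 and 34.3 points (exact two-sided sign-flip permutation test over libraries, p = 0.12, the smallest that 4 libraries allow, so it cannot pass 0.05). Against the 165358 CpGs with only 1 to 2 neighbours within 100 bp they were higher by 6.99, 6.84, 6.62 and 4.38 points, with the same p. Much of this gap came with isolated CpGs whose nearest listed CpG was exactly 150 bp away, a set described further on. Without that set, isolated CpGs were higher than CpGs with 1 to 2 neighbours by 3.02, 2.99 and 2.80 points in the control, 0-division and 1-division libraries. In the >3-division library the gap was then 0.065 points, with an interval that includes 0 (-0.0081 to 0.14).

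Mean levels stepped down with every added class of neighbours. In control they were 79.3% at isolated CpGs, 72.3% with 1 to 2 neighbours, 67.0% with 3 to 4, 53.9% with 5 to 10 and 6.87% with 11 or more. In the >3-division library they were 69.8%, 65.4%, 61.6%, 50.7% and 6.15% in the same order. At the edge of the isolation rule the levels were close. The 6343 isolated CpGs whose nearest listed CpG was over 100 and up to 110 bp away averaged 71.9% in control, and the 7419 CpGs just outside, at 91 to 100 bp, averaged 70.8%. At more than 3 divisions these sets averaged 62.4% and 61.4%. At the edge of the coverage rule, the 3759 isolated CpGs with a lowest coverage of 10 to 12 reads averaged 75.1% in control and 61.8% at more than 3 divisions, and the 4833 left out with 7 to 9 reads averaged 74.0% and 60.1%.

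**Figure D2:**
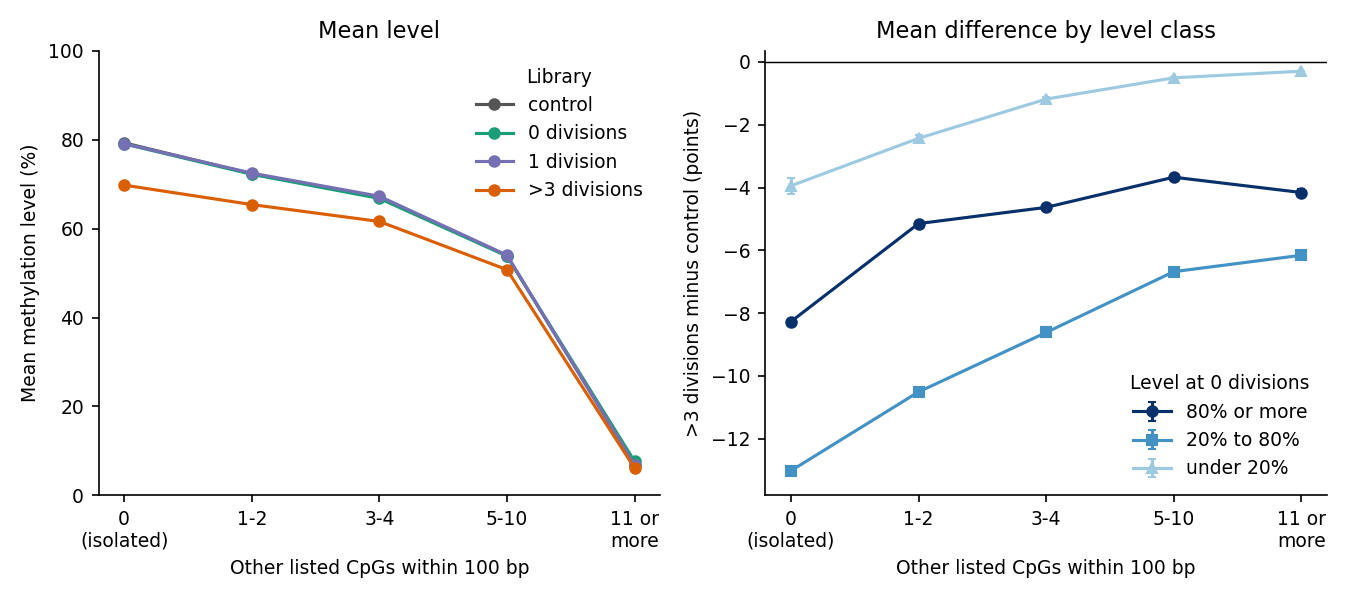
Left, mean methylation level (%) in each library by the number of other listed CpGs within 100 bp. Right, mean difference of the >3-division library from control (percentage points) in the same classes, split by the level at 0 divisions, with 95% read-counting intervals; at 80% or more the isolated CpGs differ by -8.27 points and the CpGs with 1 to 2 neighbours by -5.15 points.

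The first comparison set cells that did not divide in doxycycline against uninduced cells. Isolated CpGs averaged 79.1% at 0 divisions and 79.3% in control, a difference of -0.25 points (-0.30 to -0.19). Computed from the summed reads of all isolated CpGs it was -0.84 points, and without the CpGs spaced 150 bp -0.13 points. Of the isolated CpGs 50.6% were lower and 48.3% higher, and the standard deviation of the difference was 7.88 points, against 7.34 points from read counting alone. At single sites 2 isolated CpGs were called lower and 2 higher by at least 20 points (two-sided Fisher's exact test, p under 0.05 after Benjamini-Hochberg adjustment over all 1045368 CpGs). Over all CpGs tested 0.00631% were called lower and 0.0045% higher, so counts of this size are near the background. At an unadjusted p under 0.05 in Fisher's exact test there were 1900 lower and 1813 higher isolated CpGs. These were 2.59% and 2.47% of them, against 1.77% and 2.02% of all CpGs tested. The sets were not matched by level: 52.2% of the other autosomal CpGs were under 20% in control, against 3.02% of isolated CpGs. The part of level in these shares was not tested, so they do not show more change at isolated CpGs.

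All 4 of these sites can be named, at mm9 positions as the deposited tables give them. On chromosome 10 at 82418028 the level was 75% of 28 reads in control, 19.9% of 201 reads at 0 divisions, 67.6% of 34 at 1 division and 59.4% of 32 at more than 3 divisions (adjusted p = 1.74e-04 for 0 divisions against control, Fisher's exact test). On chromosome 8 at 11308752 it was 86.1% of 36 reads, 35.3% of 133, 72.1% of 43 and 64.0% of 89 in the same order. In both, the low level came with several times more reads than in the other libraries, except for the 89 reads of the >3-division library at the second. The sites called higher were on chromosome 1 at 134232481, with 61.4% at 0 divisions against 37.3% in control, and on chromosome 11 at 101398082, with 84.8% against 62.8%.

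The second comparison took cells with 1 division. Isolated CpGs averaged 79.1% at 1 division and 79.3% in control, a difference of -0.20 points (-0.25 to -0.14), or -1.16 points from summed reads. Without the CpGs spaced 150 bp it was -0.052 points, with an interval that includes 0 (-0.13 to 0.022). The 1-division mean was 0.05 points above the 0-division mean (-0.0044 to 0.10). At single sites 1 isolated CpG was called lower and 3 were called higher (two-sided Fisher's exact test, adjusted p under 0.05). These were 0.00136% and 0.00408% of isolated CpGs, against 0.00153% and 0.0022% of all CpGs tested, so counts of this size are near the background. At equal depth 0 were called in either direction. At an unadjusted p under 0.05 in Fisher's exact test there were 1970 lower and 1813 higher, 2.68% and 2.47%, against 1.63% and 1.86% of all CpGs tested. The sets were again not matched by level, so these shares do not show more change at isolated CpGs.

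The CpG called lower, on chromosome 6 at 109530957, stood at 86.4% of 44 reads in control, 47.7% of 44 at 0 divisions, 24.0% of 25 at 1 division and 15.4% of 26 at more than 3 divisions. Each library in this order was lower than the one before, but the Wilson intervals of the last 2 overlapped (11.5% to 43.4% and 6.15% to 33.5%). The 3 CpGs called higher shared another order, with the highest level at 1 division and the lowest at more than 3 divisions. They were chosen for a 1-division level at least 20 points above control, so their high level there follows in part from the choice. On chromosome 13 at 65477651 the level was 54.7% of 521 reads in control, 60.4% of 804 at 0 divisions, 82.4% of 1612 at 1 division and 14.0% of 86 at more than 3 divisions (adjusted p = 4.77e-29 for 1 division against control, Fisher's exact test). On chromosome 8 at 121928142 it was 33.8%, 62.7%, 70.4% and 2.38%, and on chromosome 1 at 89612539 it was 38.8%, 62.3%, 80.2% and 14.3%. The last 2 had 42 and 14 reads in the >3-division library.

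The third comparison took cells with more than 3 divisions. Isolated CpGs averaged 69.8% at more than 3 divisions and 79.3% in control, a difference of -9.52 points (-9.58 to -9.46), and 79.3% of them were lower. The difference had a median of -7.78 points, with quartiles at -15.3 and -1.38 points, and 15.9% were lower by at least 20 points. Over all CpGs tested, of every density, the mean difference was -3.62 points and the median -0.23 points. The standard deviation across isolated CpGs was 13.1 points, against 8.75 points from read counting, so the difference varied between sites by more than counting error.

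At single sites 4527 isolated CpGs, 6.16%, were called lower and 39 were called higher by at least 20 points (two-sided Fisher's exact test, adjusted p under 0.05). Over all CpGs tested 3.05% were called lower and 0.0865% higher. CpGs with 1 to 2 neighbours were called lower at 6.59% and those with 3 to 4 at 5.15%, so the share at isolated CpGs was near that of other CpG-poor sites. At equal depth in the 4 libraries 3.33% of isolated CpGs were called lower and 0.0231% higher, and with read counts divided by the overdispersion of 1.21 measured between the control and 1-division libraries 4.10% and 0.0218%. The 4527 CpGs averaged 35.6% at more than 3 divisions and 74.4% in control, the libraries that chose them. In the libraries that took no part in the call they averaged 70.7% at 0 divisions and 71.4% at 1 division, a difference of 0.70 points between 1 and 0 divisions (0.48 to 0.91). At these CpGs the mean of the 1-division library was not below that of the 0-division library.

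The 5 isolated CpGs with the largest falls had thin coverage in the >3-division library. On chromosome 11 at 115824563 the level was 95.4% of 65 reads in control, 87.3% of 79 at 0 divisions, 88.7% of 71 at 1 division and 9.52% of 21 at more than 3 divisions (Wilson interval 2.65% to 28.9%; adjusted p = 4.43e-11, Fisher's exact test). On chromosome 14 at 76044761 it was 87.9% of 107 reads, 80.7% of 186, 82.9% of 158 and 0 of 11 reads, which allows up to 25.9% (Wilson). On chromosome 9 at 89109303 it was 100% of 15 reads, 88.2% of 17, 75% of 20 and 0 of 11. The sites on chromosome 19 at 43983357 and chromosome 1 at 95288931 stood at 8.33% of 12 and 7.14% of 14 reads at more than 3 divisions, against 95% and 91.7% in control. All 5 were at 75% or more at both 0 and 1 division.

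The CpGs called higher were few. On chromosome 8 at 8991036 the level was 4.0% of 50 reads in control, 3.70% of 54 at 0 divisions, 12.2% of 90 at 1 division and 44.9% of 89 at more than 3 divisions (Wilson interval 35.0% to 55.3%; adjusted p = 1.22e-05, Fisher's exact test). It was low in the first 3 libraries and intermediate in the last. The other 4 were on chromosome 2 at 166308850, chromosome 14 at 58377246, chromosome 11 at 32096019 and chromosome 9 at 31491384. They stood between 60% and 82.5% at more than 3 divisions, against 25% to 47.6% in control, and each rested on at most 43 reads in either library.

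Within doxycycline, the >3-division library was set against the 0-division library. Isolated CpGs averaged 69.8% at more than 3 divisions and 79.1% at 0 divisions, a difference of -9.27 points (-9.33 to -9.21). This comparison shares its >3-division library with the one above. At single sites 4861 were called lower and 38 higher (two-sided Fisher's exact test, adjusted p under 0.05), or 6.62% and 0.0517% of isolated CpGs, against 3.22% and 0.0888% of all CpGs tested. At equal depth 3.31% were called lower and 0.0163% higher. The largest falls were again at the chromosome 9 site at 89109303 and the chromosome 19 site at 43983357, with chromosome 8 at 73967008, chromosome 13 at 17521284 and chromosome 9 at 99629030. The last 3 stood between 0 and 10.5% at more than 3 divisions, on 11 to 19 reads, against 85.7% to 95.7% at 0 divisions. Among the 5 largest rises was the chromosome 10 site at 82418028, with 59.4% at more than 3 divisions against 19.9% at 0 divisions, which also led the sites called lower at 0 divisions against control. The others were chromosome 8 at 8991036, chromosome 16 at 5163086, chromosome 2 at 144196626 and chromosome 18 at 60766442, with 44.9% to 79.4% at more than 3 divisions against 3.70% to 37.9% at 0 divisions.

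To compare sites of like level without using the libraries compared, isolated CpGs were sorted by their level at 0 divisions before the >3-division library was set against control. The 49971 isolated CpGs at 80% or more there averaged 79.5% at more than 3 divisions and 87.8% in control, a difference of -8.27 points (-8.34 to -8.20). The 21282 between 20% and 80% averaged 53.5% and 66.6%, a difference of -13.0 points (-13.2 to -12.9). The 2210 under 20% averaged 6.46% and 10.4%, a difference of -3.95 points (-4.19 to -3.70). Among isolated CpGs, those of intermediate level thus differed most in points.

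Within each level class the difference from control was larger in size at isolated CpGs than in each class with neighbours. At 80% or more it was -8.27 points at isolated CpGs, -5.15 with 1 to 2 neighbours, -4.63 with 3 to 4, -3.67 with 5 to 10 and -4.16 with 11 or more. Between 20% and 80% it was -13.0, -10.5, -8.62, -6.68 and -6.16 points in the same order. Under 20% it was -3.95, -2.43, -1.18, -0.51 and -0.29 points. Control means were not equal within a level class. In the same order they were 87.8%, 89.0%, 90.1%, 90.2% and 89.5% at 80% or more. Between 20% and 80% they were 66.6%, 61.15%, 59.8%, 59.5% and 42.8%, and under 20% they were 10.4%, 8.37%, 5.64%, 3.10% and 1.415%. The part of the starting level in these differences was not tested. The read-counting intervals of isolated CpGs and of CpGs with 1 to 2 neighbours did not overlap in any of the 3 level classes, but with 1 library per group the difference between the classes was not tested over replicates. In the 0-division library, sorted by the 1-division level, isolated CpGs differed from control by 0.056, -0.16 and -0.30 points from the lowest class to the highest, and in the 1-division library, sorted by the 0-division level, by 0.31, -0.049 and -0.28 points.

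A large part of the isolated CpGs shared one exact spacing, which the rule did not set. The nearest listed CpG lay exactly 150 bp away at 26164 of them, 35.6%, against 2758 at a distance 1 bp shorter and 812 at 1 bp longer. Of these, 96.1% had a partner at 150 bp that was an isolated CpG itself, and they were found on all 19 autosomes, where they made up 22.5% to 44.9% of the isolated CpGs. Smaller peaks stood at 229 bp with 2168 CpGs, at 105 bp with 1310, at 255 bp with 929 and at 182 bp with 886. In RRBS the ends of a fragment are MspI sites, which hold a CpG each. Spacings that recur at many places are known from copies of repeated elements, but no repeat annotation of the build was at hand and this was not tested. How reads that match several places were treated is not given in the sources used here.

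**Figure D3:**
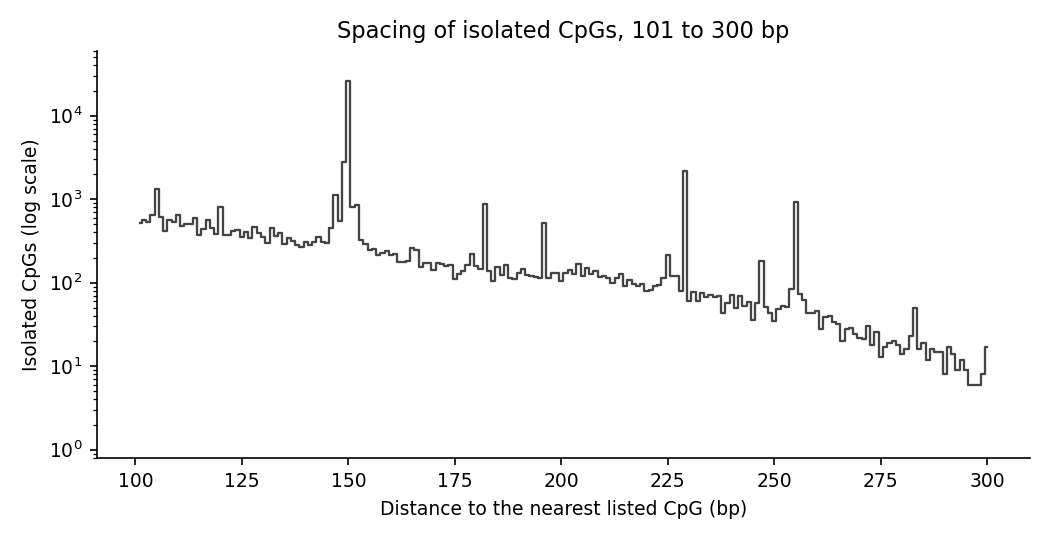
Number of isolated CpGs (y axis, log scale) at each distance to the nearest listed CpG (x axis, bp), over 100 bp and up to 300 bp. The peak at 150 bp holds 26164 CpGs, with lower peaks at 229, 105, 255 and 182 bp.

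The CpGs spaced 150 bp apart were uniformly high in the first 3 libraries. They averaged 86.5% in control, 86.0% at 0 divisions, 86.0% at 1 division and 77.6% at more than 3 divisions. All other isolated CpGs averaged 75.3%, 75.2%, 75.3% and 65.5%. The standard deviation between sites was 6.39 points in control for the 150 bp set, against 4.60 points from read counting, and 22.7 points for the other isolated CpGs, against 5.69 from read counting. Only 16 of the 26164 were under 20% in control, compared with 2203 of the 47299 others. The 150 bp set therefore supplied much of the narrow peak of the level distribution.

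The sets differed from control to a similar degree but in a different way. The >3-division library minus control was -8.89 points in the 150 bp set (-8.98 to -8.79) and -9.87 points in the others (-9.95 to -9.78). Its standard deviation between sites was 8.54 points in the 150 bp set, against 7.87 from read counting, and 15.0 points in the others, against 9.21 from read counting. The spread between sites was thus close to counting error in the 150 bp set and well above it in the others. Calls followed this spread: 604 CpGs of the 150 bp set, 2.31%, were called lower and 0 higher, against 3923, 8.29%, and 39 of the others (two-sided Fisher's exact test, adjusted p under 0.05 over all CpGs tested). The larger size of the difference at isolated CpGs of 80% or more, given above, was found in both sets, at -8.55 points in the 150 bp set and -8.04 points in the others.

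**Figure D4:**
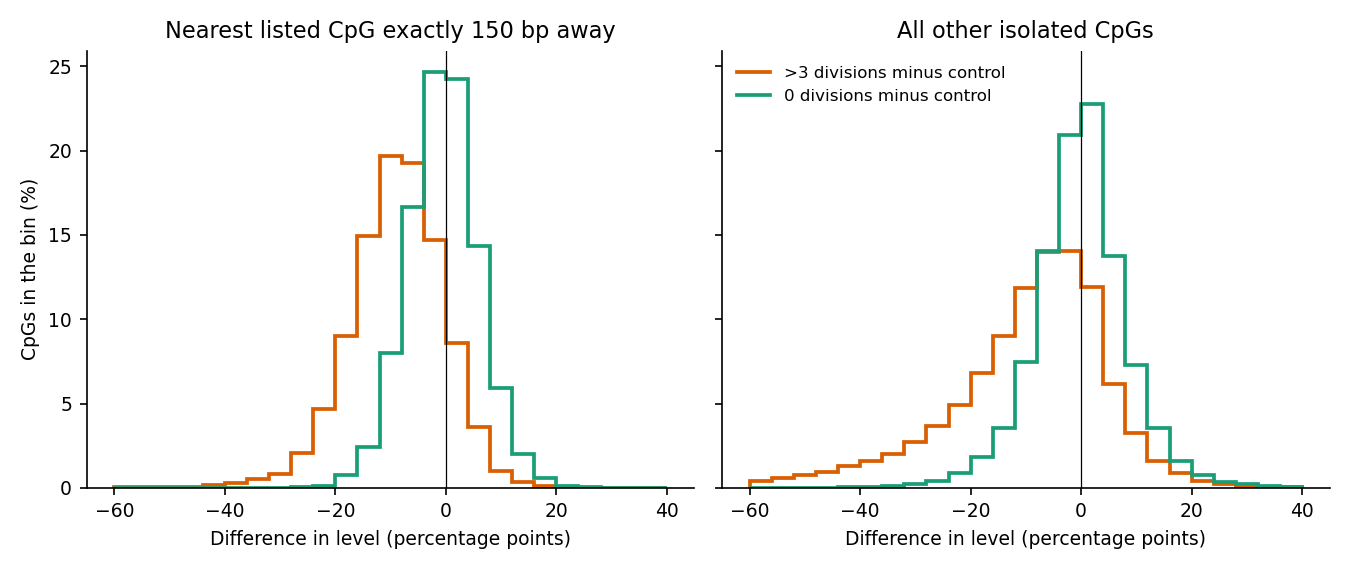
Share of CpGs (y axis, %) in 4-point bins of the difference in level from control (x axis, percentage points, shown from -60 to 40), for the 26164 CpGs with the nearest listed CpG exactly 150 bp away (left) and the 47299 other isolated CpGs (right). The >3-division difference is a narrow peak left of 0 in the first set and has a long tail to the left in the second, while the 0-division difference centres near 0 in both.

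Other recurring spacings had levels of their own. The 229 bp set averaged 89.2% in control, 88.7% at 0 divisions, 88.9% at 1 division and 80.5% at more than 3 divisions. The 182 bp set averaged 69.4%, 69.2%, 68.5% and 66.3%, with a median coverage of 161, 281, 187 and 203 reads. Its >3-division difference from control was -3.11 points (-3.47 to -2.73), the smallest in size of the 8 most frequent spacings.

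Pairs of consecutive isolated CpGs were closest in level at 150 bp. The median gap between the 2 CpGs of a pair was 5.92 points in control, 6.03 at 0 divisions, 6.54 at 1 division and 7.87 at more than 3 divisions at that spacing. It was 8.70, 8.51, 9.06 and 11.3 points for pairs closer than 150 bp. The correlation within pairs ran the other way, in a set whose levels span little. Across 4212 pairs under 150 bp apart the levels of the 2 CpGs correlated with r = 0.58 in control, 0.57 at 0 divisions, 0.56 at 1 division and 0.47 at more than 3 divisions. Across 1806 pairs over 150 and up to 220 bp apart r was 0.54, 0.55, 0.55 and 0.47, and across 6726 pairs more than 500 bp apart it was 0.13, 0.13, 0.12 and 0.088. Across 12669 pairs exactly 150 bp apart r was -0.098, -0.13, -0.12 and 0.0022. These are correlations across pairs, which share libraries and depth and are not replicates. For the difference of the >3-division library from control the correlations were near 0, with r = 0.034 under 150 bp, 0.020 at 150 bp and 0.064 over 150 and up to 220 bp.

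Within the 150 bp pairs the higher end tended to be the same in all libraries. The end that was higher in control was also the higher one in 67.6% of pairs at 0 divisions, 66.1% at 1 division and 64.8% at more than 3 divisions. Picked by the control level, the higher and lower ends averaged 87.9% and 84.4% at 0 divisions and 79.9% and 75.6% at more than 3 divisions. The ends of lower and higher coordinate averaged the same, 86.6% each in control. Picked by the 0-division level, the higher end was at 79.9% at more than 3 divisions against 88.3% in control, a difference of -8.40 points, and the lower end at 75.5% against 84.8%, a difference of -9.32 points.

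The level of isolated CpGs varied with their distance from CpG-dense sequence, taken as sites with at least 12 listed CpGs within 100 bp on either side, themselves included. The 844 isolated CpGs within 500 bp of such a site averaged 34.7% in control, 34.8% at 0 divisions, 35.1% at 1 division and 28.6% at more than 3 divisions. From there to 1000 bp the means were 54.2%, 54.3%, 54.2% and 44.2%, and on to 2000 bp 68.5%, 68.6%, 68.8% and 58.5%. Beyond 20000 bp, where 54485 isolated CpGs lay, they were 80.8%, 80.5%, 80.5% and 71.2%. In control the standard deviation was 36.3 points within 500 bp and 16.9 points beyond 20000 bp, so that near dense sequence both methylated and unmethylated CpGs were common.

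The >3-division difference from control was of like size at all distances past 500 bp. It was -6.13 points within 500 bp (-6.59 to -5.68), then -9.98 up to 1000 bp, -10.01 up to 2000 bp, -10.2 up to 5000 bp, -9.47 up to 20000 bp and -9.53 points beyond. Relative to the control level the >3-division mean was 82.3% within 500 bp, 81.6% from 500 to 1000 bp and 88.2% beyond 20000 bp. The median coverage of the >3-division library was 68.5 reads within 500 bp and 43 beyond 20000 bp, against 59 and 56 reads in control. Without the 150 bp set the means beyond 20000 bp were 67.2% at more than 3 divisions and 77.1% in control.

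**Figure D5:**
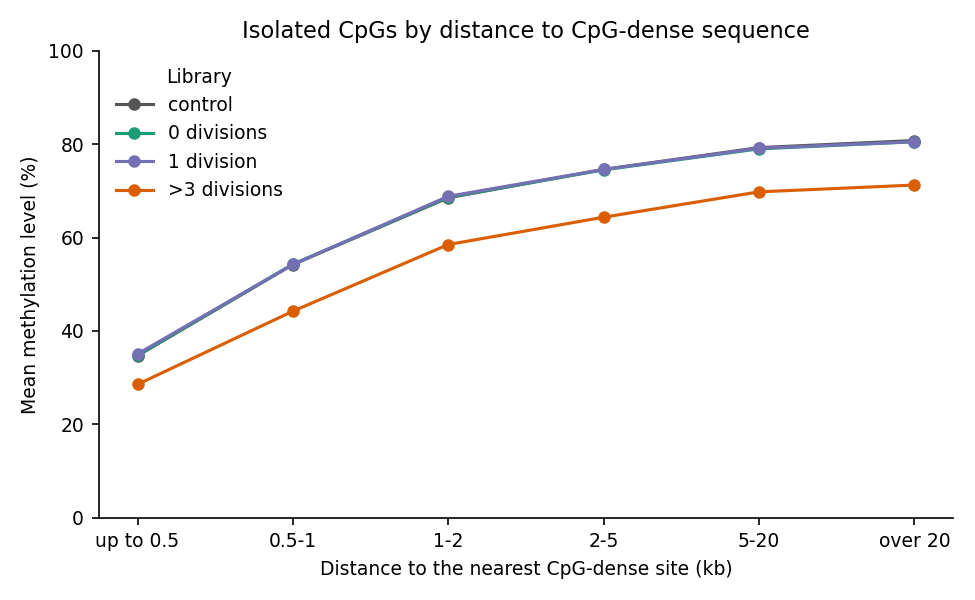
Mean methylation level of isolated CpGs (y axis, %) in each library by distance to the nearest CpG-dense site (x axis, kb). All 4 lines climb with distance, in control to 80.8% beyond 20 kb, and the >3-division line runs below the others at every distance.

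Isolated CpGs differed little between chromosomes. Their mean level in control lay between 74.9% on chromosome 11 and 81.7% on chromosome 3. The >3-division difference from control lay between -9.91 points on chromosome 11 and -8.88 points on chromosome 16 and was below 0 on all 19 autosomes. On each autosome it was larger in size than that of the other CpGs, which lay between -3.25 and -2.66 points. The gap was between -7.13 and -5.98 points. The 2 sets were not matched by level here: 52.2% of the other autosomal CpGs were under 20% in control, against 3.02% of isolated CpGs. The 0-division and 1-division differences of isolated CpGs were below 0 on 16 autosomes each and nowhere larger in size than 0.60 points. Over 2139 windows of 1 Mb with at least 20 isolated CpGs, the >3-division difference from control had a median of -9.33 points, ran from -24.2 to -1.15 points and was below 0 in all of them. The 0-division difference was below 0 in 1236 of these windows.

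Reads per CpG moved with methylation in the >3-division library. Sorted by the level at 0 divisions, the median ratio of its reads to those of control was 0.73 at isolated CpGs of 80% or more, 0.89 between 20% and 80% and 1.44 under 20%. For the 1-division library these ratios were 0.89, 1.00 and 1.02, and for the other autosomal CpGs of the >3-division library 0.63, 0.82 and 1.58. Among isolated CpGs of 80% or more at 0 divisions, the fifth with the lowest read ratio, up to 0.53, averaged 77.7% at more than 3 divisions and 89.2% in control, a difference of -11.5 points. The fifth with the highest ratio, 1.00 and above, averaged 80.6% and 86.3%, a difference of -5.69 points. The part of this depth difference in the lower levels was not tested. Coverage set how many CpGs could be seen as well: 6690 isolated CpGs with at least 10 reads in the other 3 libraries fell short in the >3-division library, 8.35%, against 0.44% to 1.35% that fell short in a single one of the others. Those 6690 averaged 82.1% in control, 82.0% at 0 divisions and 83.2% at 1 division. At isolated CpGs with at least 100 reads in all 4 libraries, 4141 in number, the mean was 60.9% at more than 3 divisions and 67.7% in control, a difference of -6.80 points (-6.94 to -6.66).

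Some isolated CpGs kept one state throughout. In all 4 libraries 23679 of them, 32.2%, were at 80% or more, against 21.3% of the other autosomal CpGs, and 1636, 2.23%, were under 20%, against 50.5% of the others. Those under 20% stood nearer to dense sequence, with 36.8% within 2000 bp of a CpG-dense site, compared with 2.37% of those at 80% or more. In the first 3 libraries alone 54.3% of isolated CpGs were at 80% or more, against 25.95% of the others. Adding the >3-division library thus lowered the share from 54.3% to 32.2% at isolated CpGs and from 25.95% to 21.3% at the others. Of 50473 isolated CpGs with at least 30 reads in all libraries, 0.99% lay between 40% and 60% in all 4, against 0.83% of the others at that coverage. A switch from 80% or more in the first 3 libraries to under 20% at more than 3 divisions was seen at 30 isolated CpGs, 0.041% of them against 0.029% of the others. At least 30 reads throughout were held by 6 of the 30, 0.012% of the isolated CpGs of that coverage, against 0.0044% of the others. Only CpGs at 80% or more in the first 3 libraries could switch. At that coverage they made up 57.4% of isolated CpGs and 22.6% of the others. The shares that switched are over all CpGs, so they do not show that isolated CpGs of high level switched more often.

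The isolated CpGs with the most reads in their shallowest library have the narrowest read-counting intervals. Whether reads from several copies of a sequence are pooled at such a site was not tested. On chromosome 2 at 98506659 the level was 89.9% of 55631 reads in control, 90.5% of 24893 at 0 divisions, 89.5% of 22110 at 1 division and 85.0% of 20825 at more than 3 divisions. The median isolated CpG had 56 reads in control. On chromosome 5 at 15180585 it was 82.2% of 1904 reads, 83.4% of 3833, 81.6% of 2679 and 63.5% of 1872, a difference of -18.7 points of the >3-division library from control (adjusted p = 6.93e-35, Fisher's exact test), under the 20 points that a call needed. Sites on chromosome 19 at 49149098, 59803880 and 33781185, all of the 150 bp set, and on chromosome 1 at 87468501 had 532 to 911 reads. They stood between 70.3% and 76.0% at more than 3 divisions, against 76.5% to 83.3% in control. The deepest low sites were chosen by a mean level under 20% over all 4 libraries, so their low levels follow in part from the choice. On chromosome 10 at 128186036 the level was 0.93% of 321 reads in control, 0 of 418 reads at 0 divisions, which allows up to 0.91% (Wilson), 1.22% of 327 at 1 division and 0.18% of 550 at more than 3 divisions. On chromosome 5 at 110523832 it was at most 1.27%, and on chromosome 1 at 136228730 at most 11.9%, in any library.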

How the data were processed

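DNA methylation was measured by RRBS in 4 libraries, 1 per group. The authors deposited, for each library, CpG positions with 2 whole-number read counts, methylated and unmethylated. The order of the deposited counts was read from the values. The first exceeds the second at many CpGs, so the second is no total. With the first taken as methylated, 91.3% of the autosomal CpGs with 11 or more neighbours were under 20% at 0 divisions. The build is mm9 per the submitters' processing notes, and positions are printed as deposited, since counting from 0 or 1 is not stated. The aligner, the methylation caller and the handling of duplicates: not given in the sources used here. No allele is recorded, and a strain difference that turns C to T would read as unmethylated in these hybrid cells.

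Levels were computed in Python 3.11.15 (numpy 2.4.6, scipy 1.17.1, numba 0.67.0) at CpGs with at least 10 reads in all 4 libraries. A two-sided Fisher's exact test per CpG, Benjamini-Hochberg adjusted over all 1045368 such CpGs, called changes at adjusted p under 0.05 and 20 points. The code was tested on simulated data. Named sites were the 5 largest called changes in each direction per comparison and the 3 deepest CpGs in each of 3 level classes. These classes were set by the mean level over the 4 libraries. Alternatives were coverage minimums of 5 and 20 reads, equal depth, removal of the deepest CpGs, other isolation rules, pooled reads and minimum differences of 10 and 30 points. Leaving out the 150 bp set and dividing reads by the overdispersion were added after seeing the data. The site set and tests were chosen with earlier results of these data known.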

Additional observations from a re-analysis of the deposited data

How the results depend on the processing

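No paired analysis was possible because each group has 1 library. All mean differences stayed below 0 under every alternative tried, but for 1 division minus control the interval included 0 under 3 of them. These were isolation within 50 bp (-0.049 to 0.034), isolation within 200 bp (-0.16 points, -0.33 to 0.0056) and leaving out the 150 bp set (-0.13 to 0.022). With a coverage minimum of 20 the means of the 1-division and >3-division libraries minus control and of >3 minus 0 divisions were -0.26, -8.90 and -8.66 points, and 0.00494% of isolated CpGs were called higher at 0 divisions. With a minimum of 5 the >3-division means were -10.01 points against control and -9.73 against 0 divisions. With reads pooled the 4 means were -0.84, -1.16, -11.5 and -10.7 points, in the order 0, 1 and >3 divisions against control and >3 against 0 divisions.

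With isolation within 50 bp the 4 means were -0.068, -0.0077, -8.91 and -8.85 points, and 0.117% and 0.0973% were called higher at >3 divisions against control and 0 divisions. With isolation within 200 bp, which left 11354 CpGs, the means for 0 divisions against control and >3 divisions against control and against 0 divisions were -0.34, -10.1 and -9.76 points. The shares called there were 0 lower and 0 higher at 0 divisions, 0 lower and 0.00881% higher at 1 division, and 0.0264% higher at >3 against 0 divisions. With neighbours counted only if listed in all 4 files the means were -0.18, -0.11, -9.59 and -9.41 points, and 0.00488% were called lower at 0 divisions.

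At equal depth 0 isolated CpGs were called in either direction at 0 and 1 division, 3.33% were called lower and 0.0231% higher at >3 divisions against control, and 3.31% and 0.0163% against 0 divisions. With a minimum difference of 30 points the shares were 0 higher at 0 divisions, 0.00953% higher at >3 divisions against control, and 4.40% lower and 0.0177% higher against 0 divisions. With 10 points 0.079% were called higher at >3 against 0 divisions. Without the deepest CpGs 0.00136% were called higher at 1 division.

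Without the 150 bp set isolated CpGs exceeded CpGs with 1 to 2 neighbours by 3.02, 2.99, 2.80 and 0.065 points in control and at 0, 1 and >3 divisions. The 4 mean differences were then -0.13, -0.052, -9.87 and -9.74 points. The shares called were 0.00423% lower and 0.00423% higher at 0 divisions, 0 lower and 0.00634% higher at 1 division, and 0.0825% and 0.0803% higher at >3 divisions against control and 0 divisions. With reads divided by the overdispersion 0.00136% were called higher at 0 divisions, 0 lower and 0.00136% higher at 1 division, 4.10% lower and 0.0218% higher at >3 divisions against control, and 0.0218% higher against 0 divisions. That overdispersion was measured on the control and 1-division libraries and so is not independent of their comparison. Fewer reads at equal depth and after the division give fewer calls by construction, and the cause of the other changes was not tested. Depth limits single sites most in the >3-division library, where 13.2% of isolated CpGs had under 20 reads.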

Other observations

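Isolated CpGs of the X chromosome were left out of the comparisons. The 6098 with at least 10 reads in all 4 libraries averaged 83.4% in control, 82.9% at 0 divisions, 83.0% at 1 division and 74.4% at more than 3 divisions. Their differences from control were -0.54 points at 0 divisions (-0.73 to -0.36), -0.40 at 1 division (-0.59 to -0.20) and -8.98 at more than 3 divisions (-9.20 to -8.75). The nearest listed CpG was exactly 150 bp away at 3114 of them.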
